A study of Mus musculus with 4 samples.

Results

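Tetraspanins are a family of small membrane proteins, and 29 of the 23450 gene symbols listed in each library belong to them by name. The members are every symbol made of Tspan and a number, together with Cd9, Cd37, Cd53, Cd63, Cd81, Cd82, Cd151, Upk1a and Upk1b. RNA sequencing gave their transcript levels in hematopoietic stem cells (HSCs), sorted from the bone marrow of mice at 2000 cells per library. The 2 libraries named LT-HSC, for long-term HSCs, came from cells without CD48 or CD34, with CD150 and high for CD9. The 2 libraries named ST-HSC, for short-term HSCs, came from cells without CD48, with CD150 and low for CD9, and no CD34 gate is given for them. All 4 libraries therefore share the CD150-positive, CD48-negative gate. The groups differ by the protein of a member, CD9, and by the stated CD34 gate, so a CD9 effect and a CD34 effect cannot be told apart. The labels used here name no strain, age or genotype. They also do not say whether the libraries of a group came from different animals. The p-values therefore set the difference between the groups only against the spread of these libraries. This spread is taken from each gene and from other genes of like level, and it may be technical.

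Tetraspanins cross the plasma membrane several times, expose a small and a large extracellular loop, and pack side by side into membrane microdomains. In these domains they hold integrins, immunoglobulin-type proteins, proteases and signalling receptors together and steer them through the cell. CD9 is known from platelets and from the fusion of egg and sperm, and the series uses it as a surface marker to sort HSCs. CD81 is a close relative of CD9, CD37 and CD53 belong to leukocytes, and CD63 marks late endosomes and exosomes.

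The promoter windows of 3 members are shown, those of the sort marker gene Cd9, of Cd82 (higher in both LT-HSC libraries) and of Cd37 (lower in both). They come from RefSeq on build GRCm38.p6 and run from 250 bases before to 50 bases after an annotated start, printed 5′ to 3′ on the strand of the gene. Capitals mark the GC box GGGCGG, the letters bound by Sp-type factors. The Cd9 window is chr6:125494711-125495010, the first of 4 listed Cd82 windows is chr2:93462901-93463200 and the Cd37 window is chr7:45238790-45239089, all on the minus strand.
Cd9: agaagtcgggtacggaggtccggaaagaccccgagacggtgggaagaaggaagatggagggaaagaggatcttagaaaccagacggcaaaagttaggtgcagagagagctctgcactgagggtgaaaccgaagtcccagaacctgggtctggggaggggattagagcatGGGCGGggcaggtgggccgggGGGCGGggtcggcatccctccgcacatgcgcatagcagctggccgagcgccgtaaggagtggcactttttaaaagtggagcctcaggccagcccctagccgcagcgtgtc
Cd82: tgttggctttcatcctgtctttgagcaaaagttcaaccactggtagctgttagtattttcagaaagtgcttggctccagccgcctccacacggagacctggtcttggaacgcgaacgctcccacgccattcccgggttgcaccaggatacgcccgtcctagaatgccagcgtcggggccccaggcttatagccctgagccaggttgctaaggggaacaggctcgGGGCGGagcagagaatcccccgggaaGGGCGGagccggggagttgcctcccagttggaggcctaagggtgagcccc
Cd37: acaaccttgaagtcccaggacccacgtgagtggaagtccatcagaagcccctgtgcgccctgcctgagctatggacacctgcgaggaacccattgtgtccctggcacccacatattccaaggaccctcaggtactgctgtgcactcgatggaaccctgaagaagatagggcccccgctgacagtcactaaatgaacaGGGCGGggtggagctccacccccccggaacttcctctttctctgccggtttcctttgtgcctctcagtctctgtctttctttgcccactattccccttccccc

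The Cd9 and Cd82 windows hold 2 GC boxes each and the Cd37 window holds 1. Searched on both strands, GGGCGG occurred in the first listed window of 14 of the 27 members with one, and in 35.7% of all 32851 windows of the table. These member windows had a median GC content of 59.3%, against 52.7% for all windows, and the motif shares were not adjusted for it. The TATA box TATAAA, the GATA motif AGATAA and the ETS motif CCGGAAG occurred in 2 of 27 members each, against 13.6%, 11.2% and 8.86% of all windows. The RUNX motif TGTGGT occurred in 4 of 27 members, against 16.8%. None of the 3 printed windows holds any of these 4 motifs. The matches are a description of letters, and promoter activity was not measured here.

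The 4 libraries held 13078576 to 16157402 reads by the authors' totals, and 13275 to 14548 genes lay above the lowest value, which stands for 0 or 1 read. Values are given as CPM, the reads of a gene scaled to a common library size, and 3 reads equal 0.186 to 0.229 CPM. HSC marker genes were present in every library. Of 10 listed markers, 9 were found in the files and 0 of these lay at the lowest value in any library, with a summed level of 3352 to 3453 CPM in LT-HSC and 2357 to 2448 CPM in ST-HSC. Of the sort marker genes, Cd48 had 3 reads in both LT-HSC 1 and LT-HSC 2 against 248 and 576 in ST-HSC 1 and 2, Cd34 stood at 168 ± 47.2 CPM and 377 ± 74.7 CPM (SD, n = 2 each), and Slamf1, which encodes CD150, at 125 ± 18.2 CPM and 86.9 ± 29.7 CPM (SD, n = 2 each). In bulk libraries, fewer cells of a type and less RNA per cell cannot be told apart.

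Of the 29 tetraspanin genes, 18 lay above the lowest value in all 4 libraries, and 14 reached 1 CPM in all 4. Tspan1, Tspan10, Tspan11 and Upk1b, a uroplakin of the bladder lining, lay at the lowest value in every library, which with a floor of 3 reads allows up to 0.229 CPM. The genes that reached 1 CPM in at least 2 libraries, 20 in all, entered the test. The summed level of the 29 genes was 2342, 1983, 2162 and 2152 CPM in LT-HSC 1 and 2 and ST-HSC 1 and 2. The LT-HSC libraries held the highest and the lowest sum, so the groups overlapped. The plot of levels by library shows all 29 genes.

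**Figure D1:**
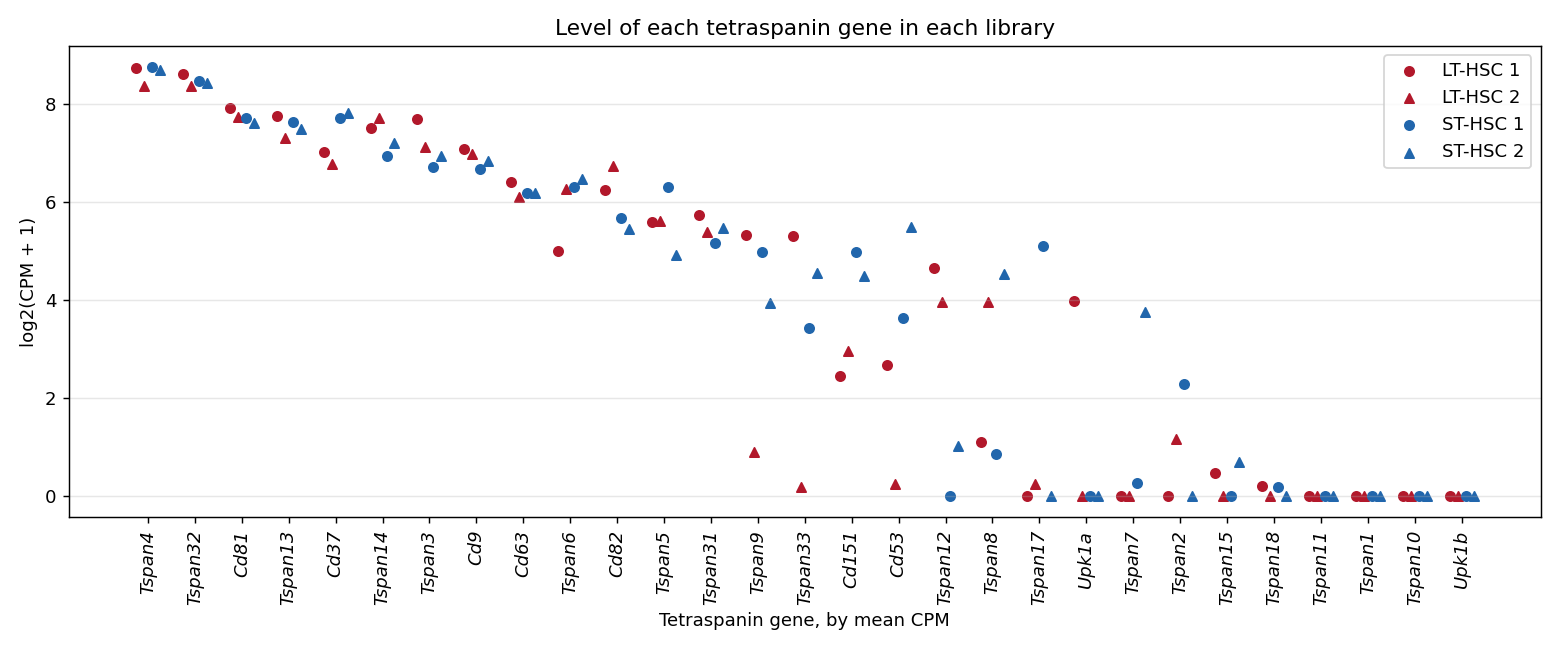
Level of each of the 29 tetraspanin genes as log2(CPM + 1) on the vertical axis, ordered by mean CPM, with 1 point per library (red, LT-HSC; blue, ST-HSC; circles, library 1; triangles, library 2). The points of the most abundant genes lie close together, and below about 50 CPM libraries of the same group separate, as for Tspan33 with 38.4 and 0.124 CPM in LT-HSC.

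Levels of different genes were compared per kilobase of exon. Tspan4, whose protein builds migrasomes, the vesicles that migrating cells leave behind, held rank 1 in every library at 196, 151, 197 and 189 CPM per kilobase in LT-HSC 1 and 2 and ST-HSC 1 and 2. Cd81 held rank 3 in every library, at 67.5 to 83.8 CPM per kilobase. Tspan13 (63.2 to 87.4), Cd81, Tspan14 (45.8 to 79.0), Cd9 (49.1 to 65.5) and Tspan32 (52.9 to 62.6) followed Tspan4. Over the 4 libraries, the range of Cd81 lay above those of Cd9 and Tspan32, and that of Tspan13 above that of Tspan32, while the ranges of the remaining pairs among these 5 genes overlapped. Cd37 stood at 36.8 and 30.6 CPM per kilobase in LT-HSC and 59.7 and 64.1 in ST-HSC. That was rank 8 and 10 in LT-HSC 1 and 2, and rank 4 in both ST-HSC libraries. Cd82 held rank 9 and 8 in LT-HSC 1 and 2 and rank 12 and 13 in ST-HSC 1 and 2. The lengths come from all annotated exons, and which exons these cells use was not measured.

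**Figure D2:**
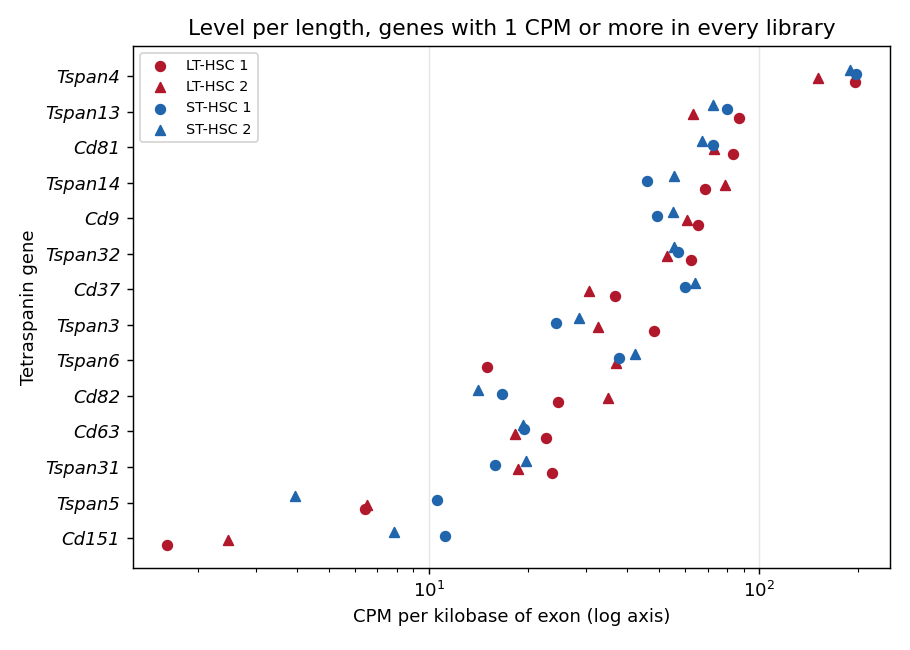
Level in CPM per kilobase of exon (horizontal log axis) of the 14 tetraspanin genes with at least 1 CPM in every library, 1 point per library. Tspan4 lies apart at 151 to 197, and Cd151 shows both LT-HSC points (1.62 and 2.46) below both ST-HSC points (11.2 and 7.87).

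The comparison of LT-HSC with ST-HSC asked which tetraspanin transcripts differ between CD9-high, CD34-negative HSCs and CD9-low HSCs. No tetraspanin gene passed the test adjusted over all genes. By limma with Benjamini-Hochberg adjustment, 0 of 20 tested members and 0 of all 12608 tested genes (0%) had an adjusted p under 0.05, with a smallest adjusted p of 0.719. At an unadjusted p under 0.05, Tspan12 was higher and Cd37 lower in LT-HSC, 1 of 20 members (5%) in each direction, against 2.92% of all tested genes higher and 3.59% lower (6.5% in either direction). By limma-voom these counts were 0 higher and 1 lower. Both LT-HSC values exceeded both ST-HSC values for 6 members (30%), against 16.1% of all tested genes, and lay below both for 4 members (20%), against 17.5%. The median log2 fold change, LT-HSC minus ST-HSC, was -0.022 over the 20 members and -0.010 over all tested genes. Fold changes below are therefore values and not calls, and with 2 libraries in each group no exact permutation test of 1 gene could reach the threshold.

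**Figure D3:**
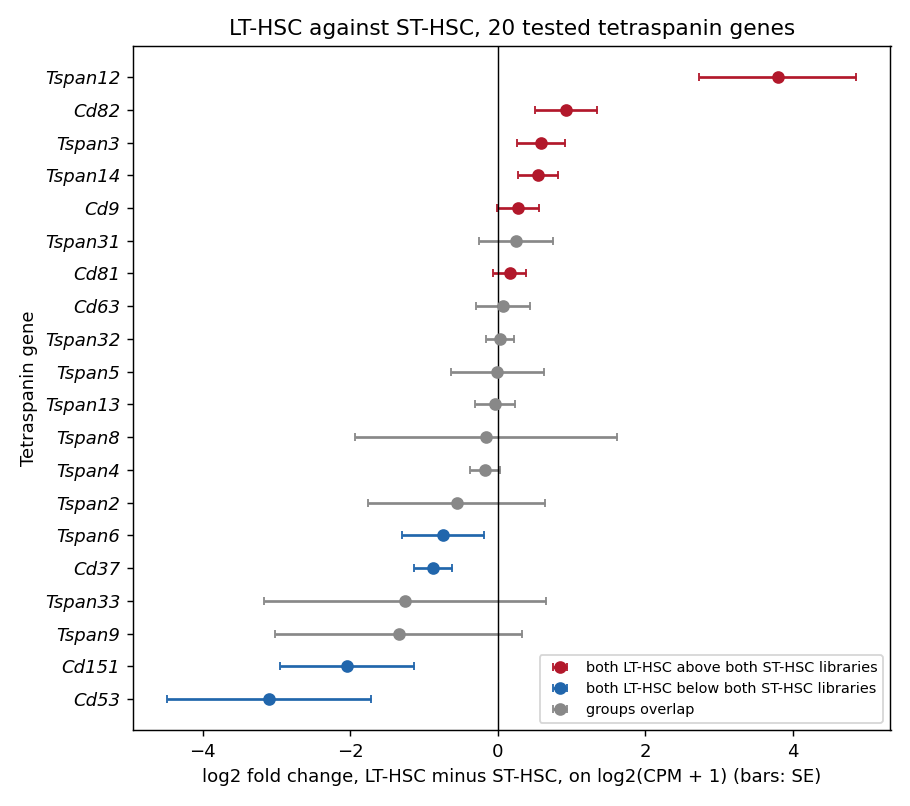
Log2 fold change (LT-HSC minus ST-HSC, on log2(CPM + 1)) with its SE from limma for the 20 tested tetraspanin genes. Red marks the 6 genes with both LT-HSC libraries above both ST-HSC libraries, blue the 4 with both below and grey the 10 whose groups overlap. The values run from -3.10 for Cd53 to 3.79 for Tspan12.

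Cd9, the gene of the sort marker, stood at 134 and 124 CPM in LT-HSC 1 and 2 and at 100.4 and 113 CPM in ST-HSC 1 and 2. The lowest LT-HSC value lay above the highest ST-HSC value, so the groups did not overlap, but the gap was small beside the levels. The means were 129 ± 6.70 CPM (SD, n = 2) and 107 ± 8.71 CPM (SD, n = 2), which gives a ratio of 1.21. The log2 fold change was 0.28 ± 0.29 (SE), with a limma adjusted p of 0.957. Cells sorted as high and low for the CD9 protein thus had a difference in Cd9 transcript within the limma SE. That SE also draws on the spread of other genes of like level. The Cd9 values of the libraries of a group differed by less, 0.11 in LT-HSC and 0.17 in ST-HSC on the log2(CPM + 1) scale. Cd9 made up 5.72% and 6.27% of the summed tetraspanin CPM in LT-HSC and 4.64% and 5.24% in ST-HSC. An annotated gene on the opposite strand, Gm26728, shares 10.7% of the exon bases of Cd9, and since strand is not stated to be used, its reads cannot be told apart there.

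Cd81 and Cd151 encode tetraspanins that bind integrins and immunoglobulin-type partners, and they differed from each other in level and in order. Cd81, best known as part of the B cell co-receptor, reached 241 and 211 CPM in the LT-HSC libraries and 209 and 194 CPM in the ST-HSC libraries. Its groups did not overlap, but LT-HSC 2 and ST-HSC 1 were nearly equal, and the log2 fold change was 0.16 ± 0.23 (SE). Cd151, whose protein binds laminin-receptor integrins tightly, reached 4.43 and 6.75 CPM in the LT-HSC libraries and 30.6 and 21.6 CPM in the ST-HSC libraries. Both LT-HSC values lay far below both ST-HSC values. The mean was 5.59 ± 1.63 CPM against 26.1 ± 6.42 CPM (SD, n = 2 each), with a log2 fold change of -2.04 ± 0.91 (SE) with a limma adjusted p of 0.779 and an unadjusted p of 0.0730. The value stayed between -2.30 and -1.79 with any 1 library left out.

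In RefSeq's order of protein-coding genes, Cd151 and Tspan4 are separated only by Polr2l, and Cd81 and Tspan32 are next to each other. The neighbour of Cd151, Tspan4, stood at 427, 329, 429.7 and 412 CPM in LT-HSC 1 and 2 and ST-HSC 1 and 2. Its groups overlapped, and the log2 fold change was -0.17 ± 0.20 (SE). Cd82 and Tspan18 are also next to each other, as are Tspan9 and Tspan11. In both of these pairs 1 gene was read (Cd82 and Tspan9), while Tspan18 had at most 2 reads in any library and Tspan11 none above the lowest value.

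The 4 tetraspanins grouped as leukocyte genes went in different directions. Cd82, a tetraspanin of resting HSCs and a known metastasis suppressor, reached 74.3 and 105 CPM in the LT-HSC libraries and 50.1 and 42.5 CPM in the ST-HSC libraries. Both LT-HSC values exceeded both ST-HSC values, with a ratio of means of 1.94. The log2 fold change was 0.92 ± 0.42 (SE), with a limma adjusted p of 0.782 and an unadjusted p of 0.0764. Cd37, which restrains signalling in B cells and other leukocytes, reached 129.7 and 108 CPM in the LT-HSC libraries and 210.1 and 226 CPM in the ST-HSC libraries. Its libraries agreed closely within each group, at 119 ± 15.4 CPM and 218 ± 11.0 CPM (SD, n = 2 each). The log2 fold change of Cd37 was -0.87 ± 0.26 (SE), with a limma unadjusted p of 0.0191 and an adjusted p of 0.719. The unadjusted p was 0.0841 without ST-HSC 1 and 0.123 without ST-HSC 2.

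Cd53, a tetraspanin of most white blood cells, reached 5.35 and 0.186 CPM in the LT-HSC libraries and 11.3 and 43.9 CPM in the ST-HSC libraries. Both LT-HSC values lay below both ST-HSC values, but the libraries of each group differed widely, from 3 to 70 reads in LT-HSC and from 170 to 652 in ST-HSC. The log2 fold change was -3.10 ± 1.38 (SE), and it was -4.31 without LT-HSC 1, -1.89 without LT-HSC 2, -4.03 without ST-HSC 1 and -2.16 without ST-HSC 2. Tspan32, known from platelets and T cells, reached 390.2 and 329.9 CPM in the LT-HSC libraries and 356 and 346 CPM in the ST-HSC libraries. Its groups overlapped, and its log2 fold change was 0.03 ± 0.19 (SE), the smallest SE among the 20 members.

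Marker lists of other blood cells were read beside Cd37 and Cd53, and their part in these differences was not tested. Summed over the markers found in the files, the 12 granulocyte-monocyte genes stood at 436 to 543 CPM in LT-HSC and 476 to 726 CPM in ST-HSC, and 2 or 3 of them were at the lowest value in each library. The 8 B cell genes stood at 149 to 231 CPM and 147 to 170.1 CPM, with Pax5, the B lineage transcription factor gene, at the lowest value throughout. The 8 T and NK cell genes stood at 24.2 to 105 CPM and 90.0 to 114 CPM, with the CD3 genes Cd3d and Cd3e at the lowest value throughout. Cd3g, also a CD3 gene of the list, had 20 and 15 reads in LT-HSC and lay at the lowest value in ST-HSC. Pax5, Cd3d, Cd3e and Cd3g were named outside the rule for named genes. The ranges of the summed levels of these 3 lists overlapped between the groups, but single markers were lower or higher in both LT-HSC libraries. Nkg7, a granule gene of cytotoxic cells, had 172 and 615 reads in LT-HSC and 969 and 1443 in ST-HSC, and Thy1 had 100 and 29 reads in ST-HSC and lay at the lowest value in LT-HSC. Klrb1c, of the same list, went the other way, with 115 and 965 reads in LT-HSC, 69 in ST-HSC 2 and the lowest value in ST-HSC 1. Mpo, the myeloperoxidase gene of granulocyte precursors, had 2 reads in LT-HSC 2, the lowest value in LT-HSC 1, and 152 and 317 reads in ST-HSC. Both LT-HSC values lay below both ST-HSC values for 3 of 4 tested T and NK cell markers (median log2 fold change -2.01), for 4 of 10 granulocyte-monocyte markers (median -0.62) and for 1 of 3 B cell markers (median 0.51), against 17.5% of all tested genes. They exceeded both ST-HSC values for 1 tested marker in each of these 3 lists, against 16.1% of all tested genes. At an unadjusted p under 0.05, 0 of 10 tested granulocyte-monocyte markers were higher and 1 lower, and for the 3 B cell and 4 T and NK cell markers tested there were 0 in either direction.

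Other lists did separate the groups. The 3 multipotent progenitor genes found summed to 141 and 223 CPM in LT-HSC and 380 and 538 CPM in ST-HSC, and 2 of the 3 were lower at an unadjusted p under 0.05. These 2 are Cd34 and Cd48, both genes of the sort gates, although the CD48-negative gate is shared by all 4 libraries and only the stated CD34 gate differs. Cd34 gave 134 and 201 CPM of the LT-HSC sums and 324 and 430 CPM of the ST-HSC sums. The third is Flt3. The 20 S and G2/M phase (DNA replication and mitosis) genes found summed to 1661 and 1692 CPM in LT-HSC and 2822 and 3543 CPM in ST-HSC, and 7 of 20 were lower and 0 higher at that p, against 3.59% and 2.92% of all tested genes. Cd37, Cd53 and Cd151 were also lower in both LT-HSC libraries. From LT-HSC 1 to 2 the sums of both lists rose, as did Cd151, while Cd37 and Cd53 fell. The S and G2/M phase sum rose little, and 11 of its 20 genes were lower and 9 higher in LT-HSC 2. From ST-HSC 1 to 2 the sums of both lists rose, as did Cd37 and Cd53, while Cd151 fell. The part of these lists was not tested.

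Cd63, which cycles between late endosomes and the cell surface, stood at 83.5 and 67.5 CPM in LT-HSC and 71.5 and 71.2 CPM in ST-HSC, with both ST-HSC libraries between the LT-HSC libraries. The log2 fold change was 0.07 ± 0.37 (SE).

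The TspanC8 tetraspanins carry the metalloprotease ADAM10, which sheds Notch and other surface proteins, out of the endoplasmic reticulum. Of these 6 genes, 3 were tested and 0 had an unadjusted p under 0.05. Tspan14 was the most abundant of them per length, at 182 and 209 CPM in LT-HSC and 121 and 147 CPM in ST-HSC. Both LT-HSC values exceeded both ST-HSC values, with a ratio of means of 1.46 and a log2 fold change of 0.54 ± 0.27 (SE), and the limma unadjusted p was 0.0942 (adjusted p = 0.806). Tspan5 reached 47.3 and 48.0 CPM in the LT-HSC libraries and 78.6 and 29.0 CPM in the ST-HSC libraries, so the ST-HSC libraries enclosed the LT-HSC libraries.

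The reads of the remaining TspanC8 genes differed widely between libraries or were few. Tspan33, also called Penumbra and known from red cell precursors, reached 38.4 and 0.124 CPM in the LT-HSC libraries and 9.70 and 22.4 CPM in the ST-HSC libraries. That is 502 reads in LT-HSC 1 and 2 reads in LT-HSC 2, and the log2 fold change went from -1.25 with all libraries to 1.31 without LT-HSC 2 and -3.82 without LT-HSC 1. The 11 erythroid markers summed to 664 and 493 CPM in LT-HSC 1 and 2 and 739 and 634 CPM in ST-HSC 1 and 2. Of these, 9 were lower and 1 higher in LT-HSC 2 than in LT-HSC 1. Of 10 tested markers, 1 had both LT-HSC values above both ST-HSC values and 4 had both below (16.1% and 17.5% of all tested genes). Among the 10, 2 (Aqp1 and Klf1) were lower and 0 higher with limma p-values under 0.05 before adjustment. The shares of all tested genes were 3.59% and 2.92%. The part of these markers in the Tspan33 values was not tested. Tspan17 had 502 reads in ST-HSC 1, 3 in LT-HSC 2 and the lowest value in the remaining libraries. Tspan15 had at most 9 reads in any library. Adam10 itself, named outside the rule for named genes, measured 164 ± 23.0 CPM in LT-HSC against 165 ± 21.6 CPM in ST-HSC (SD, n = 2 each), with a log2 fold change of -0.01 ± 0.27 (SE).

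Tspan12, which strengthens the response of the receptor Frizzled 4 to the ligand norrin, had the largest difference of the 20 members on the LT-HSC side. It reached 24.1 and 14.4 CPM in the LT-HSC libraries (315 and 233 reads), and lay at the lowest value in ST-HSC 1 and at 1.01 CPM in ST-HSC 2 (15 reads). Both LT-HSC libraries lay far above both ST-HSC libraries. The log2 fold change was 3.79 ± 1.06 (SE), with a limma unadjusted p of 0.0153 and an adjusted p of 0.719. The size depends on how the low ST-HSC values are treated, and it was 6.60 ± 3.02 (SE) by limma-voom and 6.17 on the deposited values. Without LT-HSC 1 the limma unadjusted p was 0.0667, and leaving out ST-HSC 1 gave 0.0986. Partners of Tspan12 were named after their values were seen. The receptor gene Fzd4 had 45 reads in ST-HSC 2 and lay at the lowest value elsewhere, the ligand gene Ndp had 6 reads in LT-HSC 1 and lay at the lowest value elsewhere, and the co-receptor gene Lrp5 had 3, 327, 33 and 16 reads in LT-HSC 1 and 2 and ST-HSC 1 and 2. The 8 endothelial and stromal markers summed to 350 and 268 CPM in LT-HSC 1 and 2 and 195 and 227 CPM in ST-HSC 1 and 2. Of 5 tested markers, 3 had both LT-HSC values above both ST-HSC values and 0 had both below (16.1% and 17.5% of all tested genes). Their part in the Tspan12 values was not tested.

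Among the 12 members without a fixed role, 8 were tested, and Tspan3 and Tspan6 had groups that did not overlap. Tspan3, linked in other work to leukemia stem cells, reached 206 and 139 CPM in the LT-HSC libraries and 104 and 122 CPM in the ST-HSC libraries, with a log2 fold change of 0.58 ± 0.32 (SE). LT-HSC 1 stood apart above the other libraries, and without it the value was 0.30. Tspan6, an X-linked gene, reached 31.0 and 76.1 CPM in the LT-HSC libraries and 77.8 and 87.2 CPM in the ST-HSC libraries, with a log2 fold change of -0.75 ± 0.55 (SE). Here LT-HSC 1 stood apart below, LT-HSC 2 was nearly equal to ST-HSC 1, and the value was -0.11 without LT-HSC 1. Tspan6 was also the gene whose groups overlapped once the libraries were scaled by TMM or median-of-ratios factors.

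Tspan13 and Tspan31 showed overlapping groups. Tspan13 reached 216 and 156 CPM in the LT-HSC libraries and 199 and 179 CPM in the ST-HSC libraries. Tspan31 reached 51.9 and 41.0 CPM in the LT-HSC libraries and 35.0 and 43.1 CPM in the ST-HSC libraries, and 29.2% of its exon bases are shared with the cell cycle kinase gene Cdk4 on the opposite strand, so its values are uncertain. Tspan4 shares 13.4% of its exon bases with Chid1 in the same way, and, apart from Cd9, the other members share at most 7.04% with another gene.

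Tspan9, Tspan8, Tspan2 and Tspan7 varied more between libraries of the same group. Tspan9, a platelet tetraspanin, reached 38.8 and 0.866 CPM in the LT-HSC libraries and 30.4 and 14.3 CPM in the ST-HSC libraries, and its log2 fold change of -1.34 became 0.86 without LT-HSC 2 and -3.55 without LT-HSC 1. The 13 megakaryocyte-platelet markers found summed to 593 and 665 CPM in LT-HSC 1 and 2 and 500.2 and 285 CPM in ST-HSC 1 and 2. Vwf alone, the gene of von Willebrand factor, gave 304 and 380 CPM of the LT-HSC sums and 45.4 and 9.23 CPM of the ST-HSC sums. Gp5, a platelet glycoprotein gene, stood at 17.9 and 2.17 CPM in LT-HSC. Itga2b, a platelet integrin subunit gene, went the other way, at 2.52 and 5.08 CPM in LT-HSC and 152 and 105 CPM in ST-HSC. Of 11 tested markers, 1 had both LT-HSC values above both ST-HSC values and 3 had both below (16.1% and 17.5% of all tested genes). Of the 13 genes, 5 were lower and 6 higher in LT-HSC 2 than in LT-HSC 1, and their part in the Tspan9 values was not tested. Tspan8, a gene raised in several carcinomas, reached 1.15 and 14.5 CPM in the LT-HSC libraries and 0.798 and 22.2 CPM in the ST-HSC libraries, low in both libraries numbered 1 and high in both numbered 2. Tspan7 had 186 reads in ST-HSC 2, 3 in ST-HSC 1 and the lowest value in LT-HSC. Tspan2, an oligodendrocyte tetraspanin gene, had 20 reads in LT-HSC 2 and 58 in ST-HSC 1 and lay at the lowest value in the remaining libraries. Upk1a, the other uroplakin gene, had 194 reads in LT-HSC 1 and lay at the lowest value elsewhere.

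The spread between libraries of a group depended on the level of the member. Among the 12 tested members with a mean of at least 50 CPM, the median absolute difference between libraries on the log2(CPM + 1) scale was 0.28 in LT-HSC and 0.15 in ST-HSC, against 0.46 and 0.36 for all 6123 tested genes at that level. Among the 8 tested members under 50 CPM it was 1.79 and 1.08, against 1.12 and 0.94 for 6485 genes. Leaving out 1 library at a time changed the sign of 9 of the 20 members. The other 11, Cd9, Cd37, Cd53, Cd81, Cd82, Cd151, Tspan3, Tspan6, Tspan12, Tspan14 and Tspan31, kept their sign under each alternative setting that tested them, 12 settings for all but Cd53 and Tspan12, which the filter of 1 CPM in all 4 libraries removed and which had 11.

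**Figure D4:**
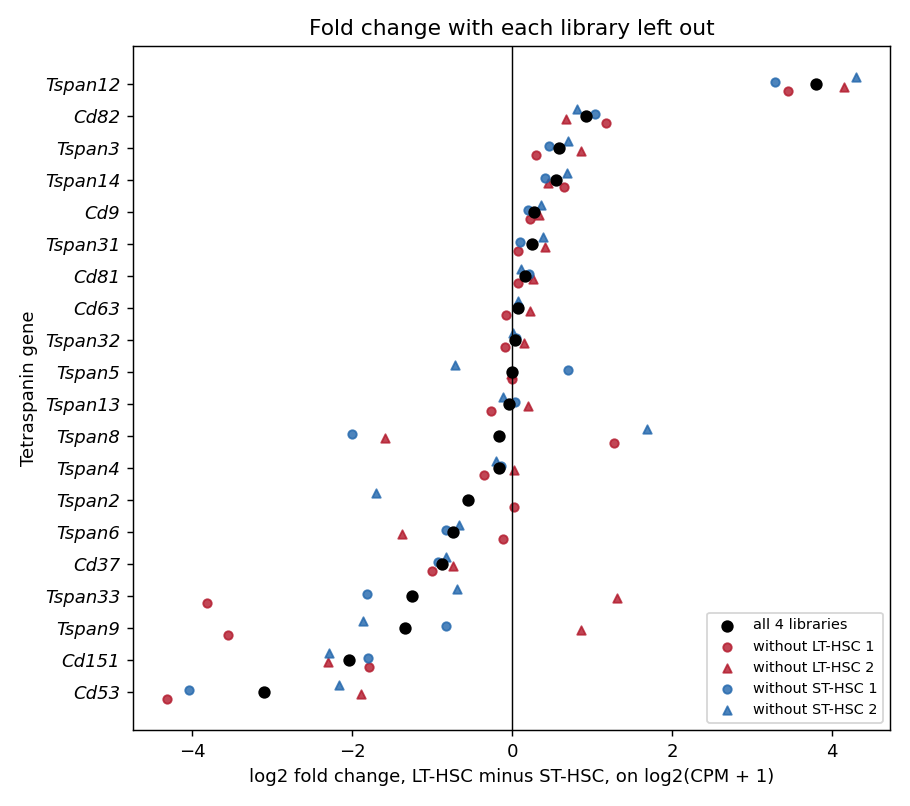
Log2 fold change (LT-HSC minus ST-HSC, on log2(CPM + 1)) of the 20 tested tetraspanin genes with all 4 libraries (black) and with each library left out (red, an LT-HSC library; blue, an ST-HSC library; a gene below the filter without a library has no point). The points of Cd9 run from 0.19 to 0.36 and those of Tspan33 from -3.82 to 1.31.

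The proteins that tetraspanins gather were read from a list of 48 names, of which 47 were found in the files and 38 were tested. No partner gene passed the test adjusted over all genes (0 by limma, adjusted p under 0.05). At an unadjusted p under 0.05, 3 of 38 were higher and 2 lower in LT-HSC, against 2.92% and 3.59% of all tested genes. Over the 38 genes, the median log2 fold change was 0.07, against -0.010 over all tested genes, and both LT-HSC values exceeded both ST-HSC values for 5 genes and lay below both for 5 (16.1% and 17.5% of all tested genes). Itga6, the laminin-receptor integrin subunit that pairs with CD151 and CD9, had 3851 and 5243 reads in LT-HSC and 2765 and 2794 reads in ST-HSC, or 309 ± 21.2 CPM against 186 ± 3.20 CPM (SD, n = 2 each), with a log2 fold change of 0.73 ± 0.21 (SE). Itga6 was thus higher in both LT-HSC libraries, while Cd151 was lower in both. Its partner chain Itgb1 was at 224 ± 5.25 CPM and 243 ± 2.05 CPM (SD, n = 2 each), with a log2 fold change of -0.12 ± 0.21 (SE), and was named after its values were seen. Cd44, the hyaluronan receptor, stood at -1.15 ± 0.36 (SE) in log2 fold change, and Itga2b, the platelet integrin subunit that lies beside CD9 in platelets, at -4.78 ± 0.74 (SE). The other higher genes, named after their values were seen, were the adhesion receptor gene Icam1 (1.23 ± 0.45 SE) and Igsf3 (3.33 ± 1.24 SE), a relative of the EWI proteins.

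The EWI proteins, immunoglobulin-type proteins that bind CD9 and CD81 directly, were read unevenly. Igsf8 had 71 and 538 reads in LT-HSC and 411 and 269 reads in ST-HSC, with overlapping groups. Ptgfrn had 70 and 12 reads in LT-HSC, 2 reads in ST-HSC 1 and the lowest value in ST-HSC 2. Sdcbp, whose product syntenin links CD63 to exosome formation, was read evenly, at 519 ± 10.9 CPM and 513 ± 55.0 CPM (SD, n = 2 each). These 3 genes were named after their values were seen.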

How the data were processed

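RNA from 2000 sorted bone marrow cells per library was made into cDNA with the SMARTer kit and sequenced by an Illumina protocol, per the labels' protocols. TopHat and mm9 are named in the submitters' processing notes, and for the read counter, annotation, strand setting and filters nothing was stated in the sources used. The authors deposited log2 values, 1 file per library with 23450 gene symbols. The low values are log2 steps of whole reads over a library total, from which reads were recovered. Of the 2666 to 4217 values per library standing for at most 100 reads, 100% lay within 0.1 of a whole number, on a scale set from the same values. Before rounding to whole reads, the total implied by the scale left 288 to 578 reads for genes at the lowest value, where 215 to 399 genes had 2 reads. After rounding, the genes above it held 15044049 of 15044061 reads in ST-HSC 1, so the remainder depends on rounding. From the unrounded remainder, the lowest value was read as 0 or 1 read and set to 0.

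CPM were computed with the library totals as the only scaling. A gene was kept if 2 or more libraries reached 1 CPM. The 12608 kept genes were fitted on log2(CPM + 1) with limma 3.58.1 (R 4.3.3, statmod 1.5.0, using its trend and robust options), with Benjamini-Hochberg adjustment over all of them and a threshold of 0.05. The test planned for raw counts was not used because the files hold log2 values. The fit was tested on simulated reads, whose spread between libraries was set in advance and not estimated from these libraries. That test therefore does not show how the fit performs at the spread seen here. Fold changes on this scale understate changes of low genes. Exon lengths are unions of all GENCODE M21 exons (GRCm38), a build other than mm9, so the only coordinates given are those of the promoter windows, which are RefSeq's on GRCm38.p6. Libraries of a group were no copies of each other (chi-square of reads per degree of freedom 168.1 for LT-HSC, 133.9 for ST-HSC). The members and lists were chosen with earlier results of these data known. Named were Cd9, every member by value or range, up to 3 partner or marker genes per list by smallest p and the sort marker genes. Genes named outside this rule are marked. Alternatives were 2 other scalings, 0.25 CPM added, limma-voom, 2 other filters, a replicate block, each library left out in turn and, added after the values were seen, the deposited log2 values. Floors set from reads cover counting error only, as reads after amplification may repeat a molecule. The value of a single B cell marker gene is not reported here.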

Additional observations from a re-analysis of the deposited data

How the results depend on the processing

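Under the 12 alternative settings, limma called 0 tetraspanin genes and 0 genes in all at an adjusted p under 0.05. Of the 20 tested members, 11 kept their sign under each setting that tested them (11 settings for Cd53 and Tspan12). Tspan5 turned to 0.014 with median-of-ratios and 0.013 with TMM factors, and Tspan8 to 0.11 by limma-voom. With 1 library left out, the log2 fold change ranged from -0.71 to 0.70 for Tspan5, -2.00 to 1.68 for Tspan8, -1.70 to 0.022 for Tspan2, -0.089 to 0.15 for Tspan32, -0.079 to 0.22 for Cd63, -3.82 to 1.31 for Tspan33, -3.55 to 0.86 for Tspan9, -0.36 to 0.020 for Tspan4 and -0.27 to 0.20 for Tspan13. The cause was not tested. At an unadjusted p under 0.05, limma-voom gave 0 higher members, and the filter of 1 CPM in all 4 libraries, which removes Tspan12, gave 0 higher and 2 lower members and 238 higher and 298 lower genes in all, against 368 and 452. With 1 library left out, these counts ranged from 0 to 1 higher and 0 to 2 lower members, 185 to 405 higher and 129 to 886 lower genes in all, and 1 to 2 higher and 1 to 4 lower partner genes. The member median ranged from -0.049 to 0.22 (without LT-HSC 2). Counts of groups that do not overlap need all 4 libraries and were not run with 1 left out. The labels do not say whether libraries with the same replicate number belong together. Their deviations had a correlation of 0.051 across genes, which cannot decide this for so few libraries. The fit with the replicate block gave 401 higher and 486 lower genes and 1 higher and 1 lower member. The deposited log2 values were chosen after seeing the data. Members under about 3 reads in a library are at the limit of this depth.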

Other observations

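Some tetraspanin genes were well read in 1 library of a group and nearly absent from the other. Of the genes with at least 10 CPM in LT-HSC 1, 3.69% (365 of 9881) had at most 2 reads in LT-HSC 2, and these include Tspan33 (502 against 2 reads) and Upk1a (194 reads against the lowest value). In the opposite direction, from LT-HSC 2 to LT-HSC 1, the share was 1.70% (169 of 9924 genes), with 0 tetraspanin genes. In ST-HSC it was 2.75% (277 of 10090 genes, among them Tspan17) from library 1 to library 2 and 1.58% (157 of 9916 genes, 0 tetraspanin genes) from library 2 to library 1. The cause was not tested. These genes were chosen after their values were seen.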
